A study of Homo sapiens with 18 samples.

Results

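Axon guidance ligands and receptors were followed in the 18 arrays of a study that expressed Snail or Twist in a pair of human mammary epithelial lines. The genes were chosen by name: every gene whose symbol in the probe set annotation belongs to the Eph, ephrin, semaphorin (classes 3 to 7), plexin, neuropilin, netrin, UNC5, SLIT or ROBO families and has a probe set of its own. That gave 68 of the 18417 genes measured, 36 ligands and 32 receptors. They comprise 13 Eph receptors, 8 ephrins, 19 semaphorins, 9 plexins, 2 neuropilins, 6 netrins, 4 UNC5 receptors, 3 SLIT ligands and 4 ROBO receptors. The rule itself uses names alone, but the families were chosen with earlier results of these data known.

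These families were named for steering growing axons, and epithelia use them as well. Ephrins sit on the cell surface and activate Eph receptor kinases on the neighbouring cell, which sorts cells into compartments and tunes junctions. Class 3 semaphorins are secreted and mostly act through neuropilins paired with plexins, while the other vertebrate semaphorin classes are mostly membrane-bound and act on plexins directly. SLIT proteins are secreted and repel cells that carry ROBO receptors, and in the mammary gland SLIT and netrin family members take part in shaping ducts.

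The groups were HMLE cells transfected with Snail, HMLE cells transfected with Twist and HMLE cells with the empty vector, and MCF10A cells with Snail, with Twist and with the vector, with 3 arrays in each of the 6 groups. HMLE cells are human mammary epithelium made immortal by telomerase and T antigens of a virus. MCF10A is a non-tumorigenic mammary line that became immortal in culture. Snail (SNAI1) and Twist (TWIST1) are transcription factors that drive epithelial-mesenchymal transition (EMT), the change of adherent epithelial cells into a migratory, fibroblast-like state. All cells were grown in DMEM/F12 with serum and harvested in log growth, and stable clones were selected. The labels give neither the number of clones behind a group nor the origin of its replicates. If the replicates were not separate cultures, the p-values reflect technical spread alone.

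Values are log2 expression from the deposited table, and a difference of 1 is 2-fold. A difference is given as tested group minus comparison group ± SE, from limma's moderated test over all 6 groups. A gene is said to have risen or fallen where its p, adjusted over all 18417 genes by Benjamini-Hochberg, was under 0.05. "At least 2-fold" adds an absolute log2 difference of 1 or more.

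SNAI1 stood at 12.53 ± 0.01 in HMLE Snail arrays, against 7.39 ± 0.14 in HMLE vector arrays, and at 12.49 ± 0.07 in MCF10A Snail arrays, against 8.32 ± 0.14 in MCF10A vector arrays (SD, n = 3 each). TWIST1 differed from vector by 1.12 ± 0.07 in HMLE Snail arrays, 1.80 ± 0.07 in HMLE Twist arrays, 0.24 ± 0.07 in MCF10A Snail arrays and 0.92 ± 0.07 in labelled MCF10A Twist arrays (adjusted p at most 0.0177), so it was also higher where Snail was expressed. For the arrays labelled MCF10A Twist the named line is in doubt. The enzyme gene MTAP, in a region that MCF10A is known to have lost, was at 10.78 to 10.84 in labelled MCF10A Twist arrays, against 5.69 to 6.39 in MCF10A vector and 10.23 to 10.31 in HMLE vector arrays. The label serves only as a name here, and the group is also compared with HMLE vector. Of 6 mammary epithelial markers measured, all 6 fell in HMLE Snail, HMLE Twist and labelled MCF10A Twist arrays, and 4 fell in MCF10A Snail arrays. Of 8 fibroblast markers, 8, 8, 7 and 3 rose in those same groups. Among all genes 24.8%, 20.7%, 23.9% and 12% fell and 22.9%, 23%, 26.5% and 10.7% rose, listed alike. DCN, the 1 fibroblast marker that did not rise in labelled MCF10A Twist arrays, had a mean of 9.34 there. Its mean was 9.36 in MCF10A vector and 5.76 in HMLE vector arrays. The mean of 6 endothelial markers lay between 6.61 and 7.0 over all arrays, that of 5 leukocyte markers between 7.33 and 8.04, and that of 6 neuron and glia markers between 7.41 and 8.12. Among the leukocyte markers the defining gene PTPRC lay between 4.43 and 5.38 over single arrays. CD68, a lysosomal protein of macrophages that other cells also make, was bright throughout, and rose by 0.72 ± 0.07 with Snail and 0.73 ± 0.07 with Twist in HMLE. CD14, a monocyte receptor, had a mean of 9.87 in MCF10A Snail and 8.46 in labelled MCF10A Twist arrays, against 11.67 in MCF10A vector arrays, and lay between 6.81 and 7.39 in the HMLE arrays. MAP2, from the neuron and glia markers, had a mean of 10.28 in HMLE Snail and 8.93 in HMLE Twist arrays, against 9.26 in HMLE vector arrays. Its mean was 10.72 in MCF10A Snail and 6.51 in labelled MCF10A Twist arrays, against 8.07 in MCF10A vector arrays. The arrays hold RNA of whole cultures, so fewer cells that express a gene and less RNA per cell cannot be told apart, and the part of the marker changes in the results below was not tested.

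Promoters of 5 members are shown to introduce the sequences that Snail and Twist are known to bind, E-boxes. The 5 were picked by their change and their matches, so they do not stand for all members. Snail prefers the E-box CAGGTG, which reads CACCTG on the other strand. Twist can bind CATCTG, read as CAGATG on the other strand. The windows are the 250 bases upstream of the gene start in RefSeq on GRCh38.p14, printed on the gene's strand, with matches to either E-box in capitals. EPHA1 (chr7:143408857-143409106, minus strand), SEMA4A (chr1:156149694-156149943, plus strand) and SEMA4F (chr2:74653997-74654246, plus strand) are the members that fell at least 2-fold with Snail in HMLE and hold a Snail E-box there. EFNB2 (chr13:106535663-106535912, minus strand) also holds it and fell at least 2-fold with Twist in HMLE. SLIT2 (chr4:20251655-20251904, plus strand) rose with both factors and holds no match.
EPHA1: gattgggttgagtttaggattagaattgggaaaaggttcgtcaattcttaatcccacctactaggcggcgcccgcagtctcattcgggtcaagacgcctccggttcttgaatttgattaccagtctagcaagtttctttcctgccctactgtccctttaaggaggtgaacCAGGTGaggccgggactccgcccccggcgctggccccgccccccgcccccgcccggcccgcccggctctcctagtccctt
SEMA4A: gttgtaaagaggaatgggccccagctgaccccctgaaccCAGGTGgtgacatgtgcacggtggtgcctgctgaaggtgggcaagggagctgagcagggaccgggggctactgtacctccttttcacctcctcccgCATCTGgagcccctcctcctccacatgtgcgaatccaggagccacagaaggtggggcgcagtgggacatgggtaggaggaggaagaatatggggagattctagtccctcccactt
SEMA4F: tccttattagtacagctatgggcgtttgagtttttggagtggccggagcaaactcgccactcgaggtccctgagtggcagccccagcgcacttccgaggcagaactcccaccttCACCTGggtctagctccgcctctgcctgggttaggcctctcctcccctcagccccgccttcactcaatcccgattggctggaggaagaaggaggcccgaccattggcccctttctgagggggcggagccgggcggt
EFNB2: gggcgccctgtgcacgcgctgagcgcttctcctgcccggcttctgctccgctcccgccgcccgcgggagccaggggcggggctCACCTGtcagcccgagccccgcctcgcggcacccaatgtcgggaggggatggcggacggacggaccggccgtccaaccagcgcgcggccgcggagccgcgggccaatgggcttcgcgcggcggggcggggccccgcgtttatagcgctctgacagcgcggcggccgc
SLIT2: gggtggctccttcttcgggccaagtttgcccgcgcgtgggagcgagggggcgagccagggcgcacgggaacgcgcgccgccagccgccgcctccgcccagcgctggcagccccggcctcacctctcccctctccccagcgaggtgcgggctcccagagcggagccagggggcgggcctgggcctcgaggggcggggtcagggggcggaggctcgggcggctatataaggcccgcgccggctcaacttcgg

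The match begins 80 bases upstream of the start in EPHA1, 136 in SEMA4F, 167 in EFNB2 and 211 in SEMA4A. A promoter sequence was matched for 57 of the 68 members. The Snail E-box stood in 8 of these 57 windows (14.0%), against 17.5% of all 27303 promoters, and the CATCTG box in 4 (7.02%), against 12.2% of all promoters. The Snail E-box stood in 3 of the 10 windows of members that fell at least 2-fold with Snail in HMLE. Of the 9 windows of members that rose at least 2-fold, 0 held it, and of the 18 of members not called, 1 did. With Twist in HMLE the CATCTG box stood in 1 of 9 windows of members that fell at least 2-fold. It stood in 0 of 6 that rose at least 2-fold and in 2 of 20 not called. Outside the printed windows the Snail E-box also stood in PLXNB3 (2 matches), EPHA6, SEMA3F and SEMA3G. In HMLE Snail against HMLE vector arrays, PLXNB3 had means of 9.16 against 8.86 and the dim EPHA6 5.31 against 5.04. SEMA3F had means of 9.8 against 10.37, and SEMA3G 7.37 against 7.37. A match is a description of the letters and not a bound site.

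In HMLE, 44 of the 68 members (64.7%) changed with Snail, against 47.7% of all genes. Of these, 23 rose and 21 fell, where 22.9% of all genes rose and 24.8% fell. At least 2-fold changes were found in 21 members (30.9%), against 8.88% of all genes, with 10 up and 11 down, against 4.46% up and 4.41% down among all genes. With Twist in HMLE 41 members changed (60.3%), against 43.7% of all genes, with 17 up and 24 down, against 23% up and 20.7% down. At least 2-fold changes were found in 15 (22.1%), against 7.89% of all genes, with 6 up and 9 down, against 3.61% up and 4.28% down. With Snail in MCF10A 22 members changed (32.4%), against 22.7% of all genes, with 7 up and 15 down, against 10.7% up and 12% down. Only 4 did so at least 2-fold (5.88%), against 1.79% of all genes, 1 up and 3 down, against 0.717% up and 1.07% down. Labelled MCF10A Twist arrays differed from MCF10A vector arrays in 46 members (67.6%), against 50.4% of all genes, with 18 up and 28 down, against 26.5% up and 23.9% down. At least 2-fold differences were found in 20 (29.4%), against 10.5% of all genes, with 8 up and 12 down, against 5.19% up and 5.33% down. The median difference of the members lay between -0.05 and 0.00 in these 4 comparisons, and that of all genes between -0.02 and 0.03. Pooled over families, the members moved in both directions, while the SLIT ligands that were called only rose. The median size of the difference, sign aside, was 0.40 for members against 0.19 for all genes in HMLE with Snail, and 0.11 for both in MCF10A with Snail. Comparisons within a line share their vector arrays.

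**Figure D1:**
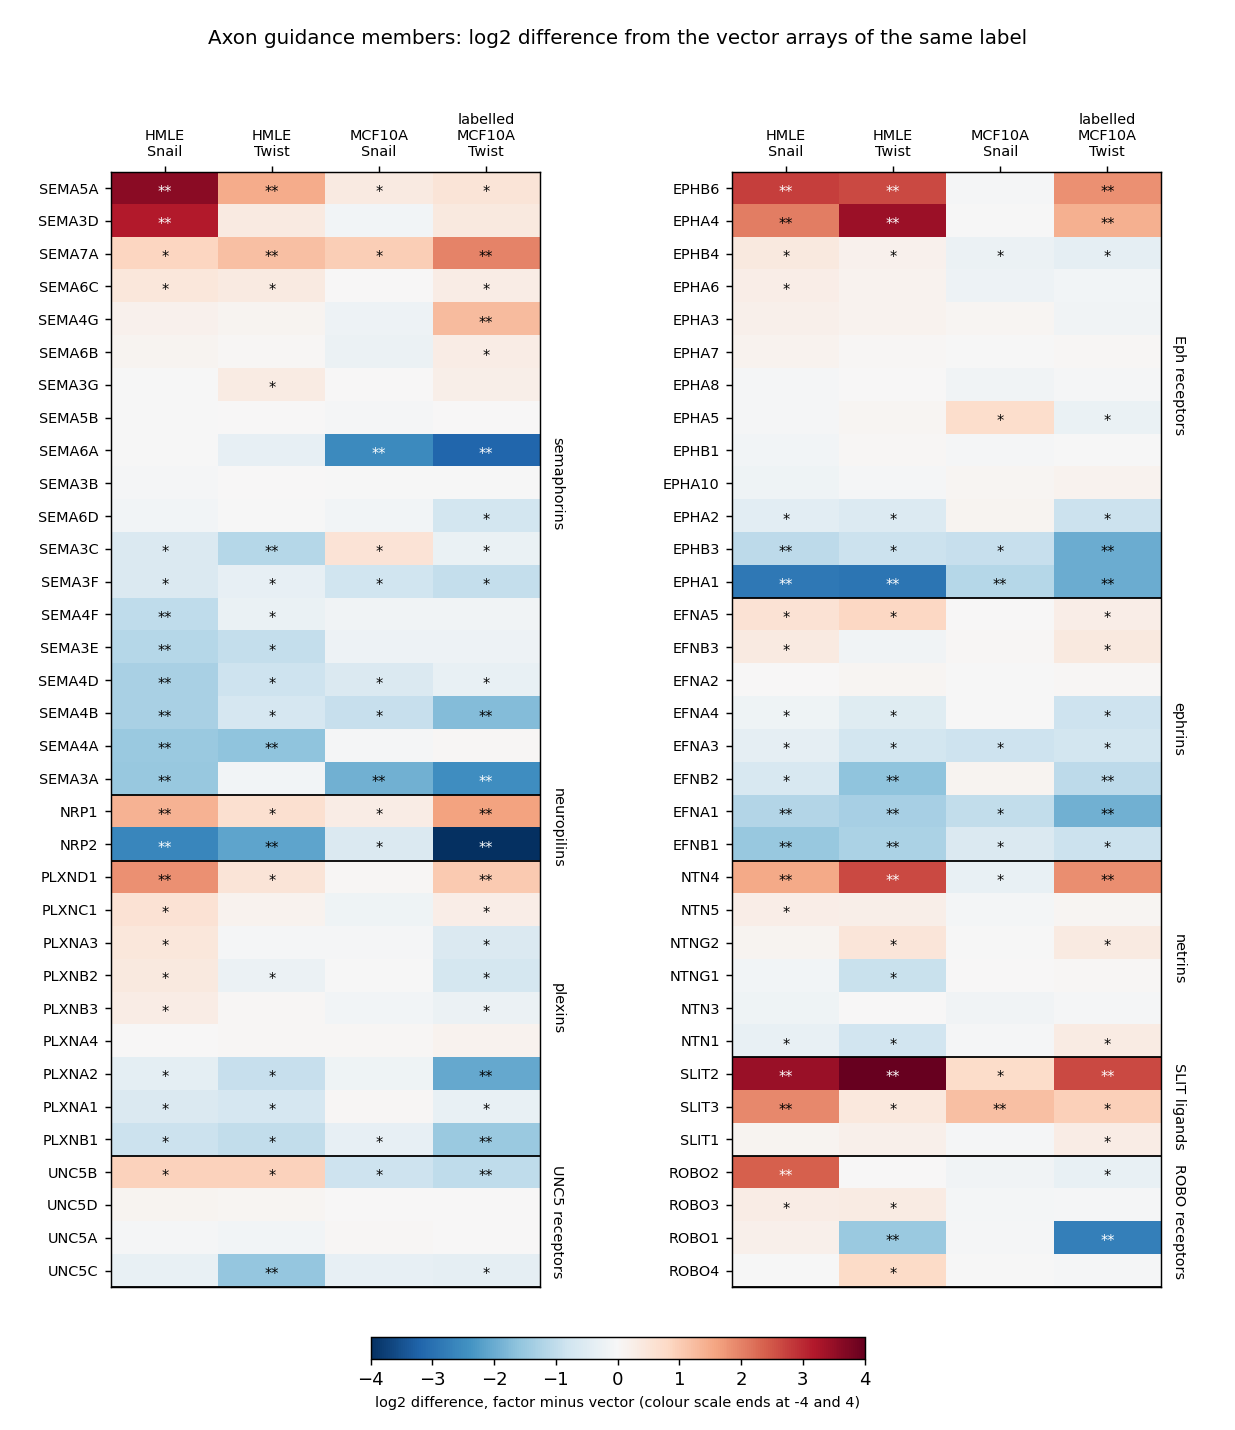
Log2 difference of each of the 68 members from the vector arrays of the same label, in columns for HMLE Snail, HMLE Twist, MCF10A Snail and labelled MCF10A Twist, with rows grouped by family. Red is higher and blue is lower than vector, a star marks an adjusted p under 0.05 and a double star also a change of at least 2-fold. SLIT2 and EPHB6 are red and EPHA1, NRP2 and EFNA1 are blue in the HMLE and labelled MCF10A Twist columns, while SEMA6A, SEMA3A, SLIT3 and EPHA1 carry the double stars of the MCF10A Snail column. NRP2 (-4.14) and SLIT2 (4.01) lie beyond the end of the colour scale.

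SLIT2, a secreted ligand of ROBO receptors, rose in all 4 comparisons with vector. It was at 11.28, 11.25 and 11.28 in HMLE Snail arrays and at 11.88, 11.74 and 11.87 in HMLE Twist arrays, against 7.87, 7.97 and 7.60 in HMLE vector arrays. That is a difference of 3.46 ± 0.09 (11-fold, adjusted p = 4.38e-15) with Snail and 4.01 ± 0.09 (16.1-fold, adjusted p = 6.39e-16) with Twist. No Snail or Twist array came near the vector arrays, and the Twist arrays were all above the Snail arrays (Snail minus Twist -0.56 ± 0.09, adjusted p = 9.91e-05). Arrays of MCF10A were at 9.02, 8.76 and 8.96 with Snail, against 8.23, 8.22 and 8.06 with vector, a difference of 0.74 ± 0.09 (adjusted p = 8.55e-06). Labelled MCF10A Twist arrays, at 10.88, 10.76 and 10.76, were higher than MCF10A vector by 2.63 ± 0.09 and higher than HMLE vector by 2.99 ± 0.09.

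SLIT3, a second secreted SLIT, followed Snail more than Twist. It was at 10.43, 10.32 and 10.54 in HMLE Snail arrays and at 9.13, 8.80 and 8.92 in HMLE Twist arrays, against 8.49, 8.51 and 8.56 in HMLE vector arrays. The rise was 1.91 ± 0.11 with Snail and 0.43 ± 0.11 with Twist, and the factors differed by 1.49 ± 0.11 (adjusted p = 1.02e-08). SLIT3 was also the member that rose at least 2-fold in MCF10A with Snail, at 9.29, 8.96 and 9.12 against 8.14, 7.78 and 7.84 with vector (1.20 ± 0.11, adjusted p = 2.43e-07). The third ligand, SLIT1, differed by 0.10 ± 0.10 with Snail (adjusted p = 0.468) and by 0.22 ± 0.10 with Twist (adjusted p = 0.101) in HMLE.

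ROBO proteins are the receptors of these ligands. ROBO1, the widely expressed SLIT receptor, was at 10.77, 10.79 and 10.76 in HMLE Snail arrays and at 9.30, 8.91 and 9.06 in HMLE Twist arrays, against 10.59, 10.60 and 10.56 in HMLE vector arrays. It fell with Twist by 1.49 ± 0.08 on the log2 scale (adjusted p = 7.38e-11), whereas the difference with Snail was 0.19 ± 0.08 (adjusted p = 0.0598), and the factors differed by 1.69 ± 0.08 (adjusted p = 6.47e-11). Lower still were labelled MCF10A Twist arrays, at 8.28, 8.21 and 8.03, against 10.91, 10.91 and 10.93 in MCF10A vector arrays (-2.75 ± 0.08). In MCF10A Snail arrays ROBO1 was at 10.90, 10.82 and 10.88, a difference of -0.05 ± 0.08 (adjusted p = 0.75).

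ROBO2, a second SLIT receptor best known from neurons and kidney development, was likewise higher with Snail than with Twist in HMLE, here through a rise with Snail. It was at 9.25, 9.11 and 9.18 in HMLE Snail arrays and at 6.72, 6.95 and 6.68 in HMLE Twist arrays, against 6.85, 6.54 and 6.95 in HMLE vector arrays. The Snail arrays stood apart from all others, by 2.4 ± 0.10 over vector (adjusted p = 2.23e-12) and by 2.4 ± 0.10 over Twist (adjusted p = 1.18e-11). Over the 3 MCF10A groups ROBO2 lay between 6.70 and 7.21, and Snail differed from vector there by -0.13 ± 0.10 (adjusted p = 0.42). ROBO4, a receptor known from endothelial cells, rose with Twist in HMLE by 0.76 ± 0.07, and ROBO3 rose by 0.31 ± 0.08 with Snail and 0.32 ± 0.08 with Twist (Snail minus Twist -0.01 ± 0.08, adjusted p = 0.960).

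Of the 13 Eph receptors, 4 rose and 3 fell with Snail in HMLE, and 3 rose and 3 fell with Twist. The shares that changed, 53.8% and 46.2%, were near the 47.7% and 43.7% of all genes. EPHA4, a receptor that binds ephrins of both classes, was at 9.77, 9.81 and 9.76 in HMLE Snail arrays and at 11.28, 11.01 and 11.14 in HMLE Twist arrays, against 7.67, 7.75 and 7.74 in HMLE vector arrays. The rise was 2.06 ± 0.07 (4.17-fold) with Snail and 3.42 ± 0.07 (10.7-fold) with Twist, and Twist arrays exceeded Snail arrays throughout (Snail minus Twist -1.36 ± 0.07, adjusted p = 1.99e-10). In MCF10A, Snail arrays at 8.08, 8.06 and 8.2 overlapped vector arrays at 8.09, 8.11 and 8.19 (-0.02 ± 0.07, adjusted p = 0.909). EPHA4 stood at 9.69, 9.54 and 9.46 in labelled MCF10A Twist arrays, above MCF10A vector by 1.43 ± 0.07 and above HMLE vector by 1.84 ± 0.07.

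EPHB6, an Eph receptor whose kinase domain is inactive, rose alongside EPHA4. Its arrays were at 10.47, 10.35 and 10.41 with Snail and at 10.54, 10.10 and 10.14 with Twist in HMLE, against 7.7, 7.43 and 7.76 with vector. The rises, 2.78 ± 0.11 with Snail and 2.63 ± 0.11 with Twist, differed between the factors by 0.15 with a 95% interval of -0.09 to 0.39. In MCF10A, Snail arrays at 7.90, 8.14 and 8.14 overlapped vector arrays at 7.96, 8.25 and 8.11 (-0.05 ± 0.11, adjusted p = 0.842). In labelled MCF10A Twist arrays EPHB6 was at 10.0, 9.93 and 9.9, above MCF10A vector by 1.84 ± 0.11.

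EPHA1, a receptor found mainly in epithelia, fell in every comparison with vector. It was at 7.17, 7.17 and 7.28 in HMLE Snail arrays and at 7.07, 7.36 and 7.0 in HMLE Twist arrays, against 10.09, 10.14 and 10.00 in HMLE vector arrays. The falls were -2.87 ± 0.11 (7.31-fold, adjusted p = 1.39e-12) with Snail and -2.93 ± 0.11 (7.64-fold, adjusted p = 1.14e-12) with Twist, and the factors differed by 0.06 with a 95% interval of -0.18 to 0.31. In MCF10A it was at 8.04, 7.97 and 7.98 with Snail, against 9.37, 9.19 and 8.9 with vector (-1.15 ± 0.11, adjusted p = 1.11e-06). The labelled MCF10A Twist arrays, at 6.96, 7.33 and 7.26, differed from MCF10A vector arrays by -1.97 ± 0.11. Its promoter is among those printed above, with the Snail E-box nearest to the start.

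EPHB3, a receptor known in mice for placing epithelial cells in the intestine, also fell in every comparison with vector. It was at 7.62, 7.68 and 7.74 in HMLE Snail arrays and at 7.87, 7.87 and 7.91 in HMLE Twist arrays, against 8.72, 8.73 and 8.73 in HMLE vector arrays. The falls were -1.05 ± 0.06 and -0.84 ± 0.06 in HMLE. Snail in MCF10A gave -0.93 ± 0.06, and the effect of Snail differed between lines by -0.11 ± 0.08 (adjusted p = 0.314). In labelled MCF10A Twist arrays EPHB3 was at 7.64, 7.83 and 7.82, against 9.78, 9.79 and 9.71 in MCF10A vector arrays (-2.00 ± 0.06). EPHA2, the receptor most often studied in breast epithelium, fell by 0.43 ± 0.06 with Snail and by 0.55 ± 0.06 with Twist in HMLE. EPHB4 rose with Snail in HMLE by 0.39 ± 0.06 and fell with Snail in MCF10A by 0.22 ± 0.06. EPHA5 rose with Snail in MCF10A by 0.69 ± 0.08 and differed by -0.05 ± 0.08 in HMLE (adjusted p = 0.657).

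**Figure D2:**
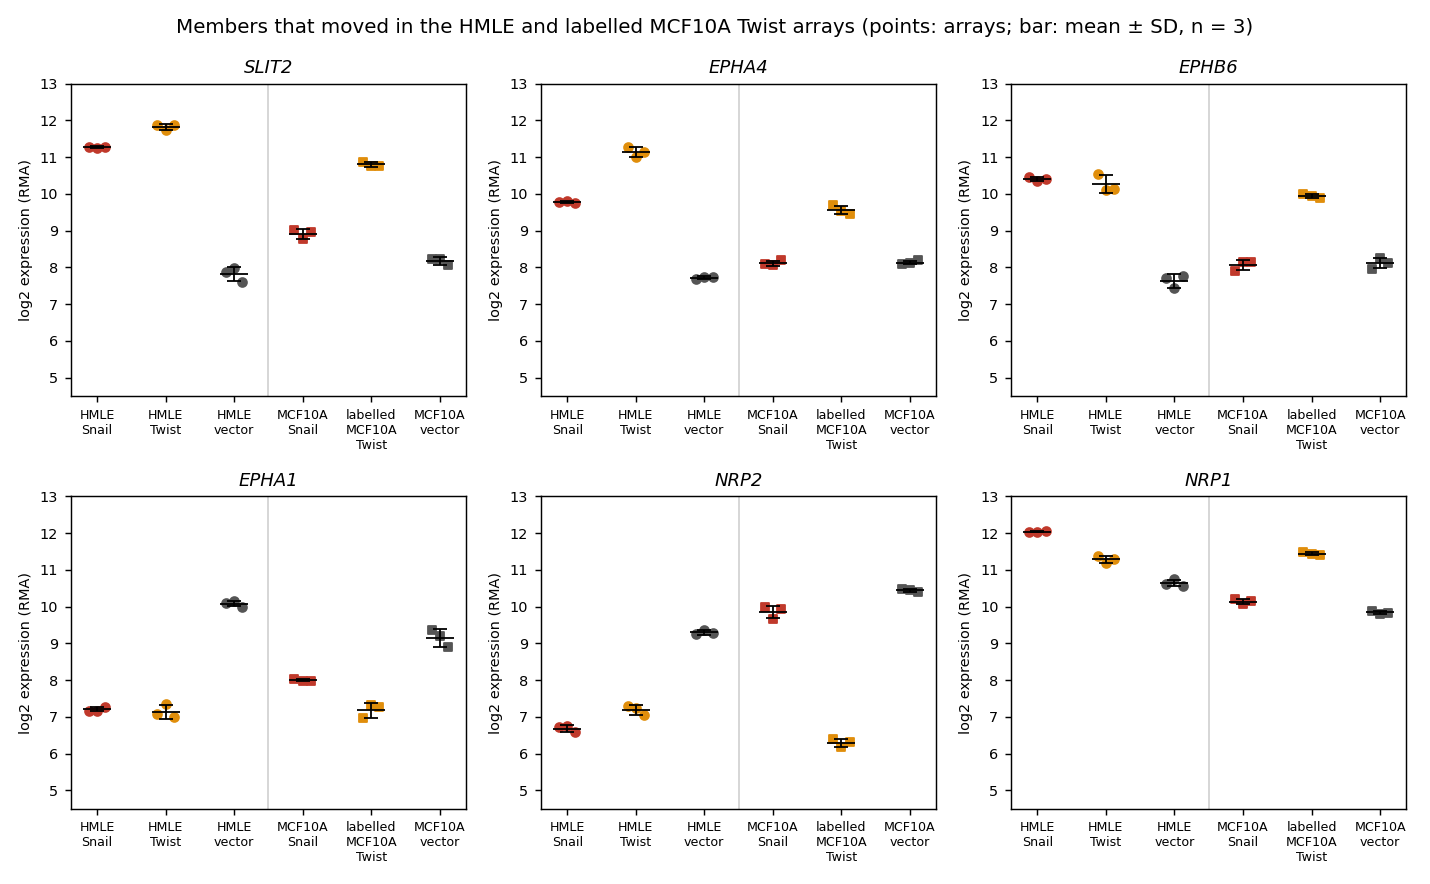
Log2 expression of SLIT2, EPHA4, EPHB6, EPHA1, NRP2 and NRP1 in each of the 18 arrays (points), with group mean and SD (black bar, n = 3), HMLE groups left and MCF10A groups right of the grey line. HMLE Snail, HMLE Twist and labelled MCF10A Twist arrays lie above their vector arrays for SLIT2, EPHA4, EPHB6 and NRP1 and below them for EPHA1 and NRP2, and MCF10A Snail arrays lie nearer to vector.

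Ephrins are the ligands of Eph receptors. With Snail in HMLE 5 of 8 fell and 2 rose, with Twist 5 fell and 1 rose, and with Snail in MCF10A 3 fell and 0 rose. Among all genes 24.8% fell and 22.9% rose, 20.7% fell and 23% rose, and 12% fell and 10.7% rose in these comparisons. EFNB1, a transmembrane ephrin, was at 9.5, 9.53 and 9.52 in HMLE Snail arrays and at 9.83, 9.72 and 9.75 in HMLE Twist arrays, against 11.08, 11.04 and 10.99 in HMLE vector arrays. It fell by 1.52 ± 0.05 with Snail, by 1.27 ± 0.05 with Twist, and by 0.59 ± 0.05 with Snail in MCF10A. EFNA1, a membrane-anchored ephrin that activates EPHA2, varied more between replicates, at 7.93, 7.57 and 7.26 in HMLE Snail arrays and 7.10, 7.88 and 7.28 in HMLE Twist arrays, against 8.92, 8.62 and 8.74 in HMLE vector arrays. Even so the groups did not overlap, and the falls were -1.17 ± 0.18 with Snail, -1.34 ± 0.18 with Twist, and -0.98 ± 0.18 with Snail in MCF10A.

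EFNB2, the transmembrane ligand of EPHB4, responded to Twist more than to Snail. It was at 9.98, 9.99 and 9.97 in HMLE Snail arrays and at 9.10, 8.86 and 8.99 in HMLE Twist arrays, against 10.59, 10.69 and 10.54 in HMLE vector arrays. It fell by 0.63 ± 0.08 with Snail and by 1.62 ± 0.08 with Twist, and the factors differed by 1.00 ± 0.08 (adjusted p = 3.33e-08). Snail in MCF10A left it at 10.55, 10.42 and 10.62, overlapping vector arrays at 10.44, 10.43 and 10.42 (0.10 ± 0.08, adjusted p = 0.451). The ephrin that rose with both factors in HMLE was EFNA5, by 0.57 ± 0.06 with Snail and 0.84 ± 0.06 with Twist, while EFNA3 fell in all 4 comparisons with vector, by 0.37 to 0.82.

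Class 3 semaphorins are secreted, and most of them bind neuropilins. SEMA3D, of this class, was at 10.60, 10.61 and 10.67 in HMLE Snail arrays and at 8.12, 7.56 and 7.71 in HMLE Twist arrays, against 7.17, 7.48 and 7.69 in HMLE vector arrays. It rose with Snail by 3.18 ± 0.19 (9.04-fold, adjusted p = 3.52e-10), Twist arrays overlapped vector arrays (0.35 ± 0.19, adjusted p = 0.171), and the factors differed by 2.83 ± 0.19 (adjusted p = 6.32e-09). In MCF10A it was low throughout, between 4.95 and 5.73 in Snail and vector arrays, with a difference of -0.10 ± 0.19 (adjusted p = 0.783).

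SEMA3A, the founding repulsive semaphorin and a ligand of NRP1, fell with Snail in both lines. It was at 8.78, 8.72 and 8.8 in HMLE Snail arrays and at 10.32, 10.00 and 10.27 in HMLE Twist arrays, against 10.27, 10.42 and 10.21 in HMLE vector arrays. The difference was -1.53 ± 0.09 with Snail (adjusted p = 3.13e-10) and -0.10 ± 0.09 with Twist (adjusted p = 0.434). MCF10A Snail arrays were at 7.85, 7.7 and 7.75, against 9.75, 9.72 and 9.62 in MCF10A vector arrays (-1.93 ± 0.09, adjusted p = 1.53e-10). SEMA3A was at 7.39, 7.05 and 7.16 in labelled MCF10A Twist arrays, a difference of -2.5 ± 0.09 from MCF10A vector and -3.1 ± 0.09 from HMLE vector.

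SEMA3C, a secreted semaphorin linked to cell migration in development, moved in opposite directions with Snail in the lines. It was at 11.33, 11.33 and 11.36 in HMLE Snail arrays, against 11.90, 11.96 and 11.88 in HMLE vector arrays (-0.58 ± 0.06). In MCF10A it was at 11.52, 11.47 and 11.49 with Snail, against 11, 10.97 and 10.91 with vector (0.53 ± 0.06). HMLE Twist arrays had SEMA3C at 10.82, 10.71 and 10.8, at least 2-fold under HMLE vector arrays. SEMA3E, a ligand of PLXND1, fell by 1.13 ± 0.08 with Snail and by 0.94 ± 0.08 with Twist in HMLE, from levels that were dim in every array (at most 6.58). SEMA3F, a ligand of NRP2, fell in all 4 comparisons with vector, by 0.31 to 0.96.

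Among membrane-bound semaphorins, SEMA5A rose with Snail in HMLE more than any other member. It was at 12.24, 12.16 and 12.24 in HMLE Snail arrays and at 10.19, 9.99 and 10.12 in HMLE Twist arrays, against 8.59, 8.64 and 8.59 in HMLE vector arrays. The rise was 3.61 ± 0.09 with Snail (12.2-fold, adjusted p = 4.48e-15) and 1.49 ± 0.09 with Twist (2.81-fold, adjusted p = 5.46e-10), and the factors differed by 2.12 ± 0.09. In MCF10A, Snail arrays at 8.32, 8.03 and 8.34 lay above vector arrays at 7.98, 7.91 and 7.75 by 0.35 ± 0.09 (adjusted p = 0.0111). SEMA7A, a membrane-anchored semaphorin, rose by 0.86 ± 0.05 and 1.21 ± 0.05 with Snail and Twist in HMLE and by 0.99 ± 0.05 with Snail in MCF10A. It was at 11.53, 11.42 and 11.49 in HMLE Snail arrays and at 11.87, 11.79 and 11.83 in HMLE Twist arrays, against 10.67, 10.62 and 10.58 in HMLE vector arrays. Labelled MCF10A Twist arrays, at 9.93, 9.83 and 9.93, stood 1.97 ± 0.05 above MCF10A vector but below all HMLE vector arrays.

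Of the class 4 semaphorins, SEMA4A, SEMA4B, SEMA4D and SEMA4F fell with both factors in HMLE. SEMA4A was at 7.38, 7.32 and 7.30 in HMLE Snail arrays and at 7.06, 7.29 and 7.28 in HMLE Twist arrays, against 8.64, 8.99 and 8.82 in HMLE vector arrays. The falls were -1.49 ± 0.09 with Snail and -1.61 ± 0.09 with Twist. All 9 arrays of the MCF10A label were at 7.02 to 7.34, close to the HMLE Snail and Twist arrays. SEMA4B fell by 1.30 ± 0.07 with Snail and 0.66 ± 0.07 with Twist in HMLE, and by 0.93 ± 0.07 with Snail in MCF10A. SEMA4F fell by 1.01 ± 0.07 with Snail in HMLE, just inside the 2-fold limit. SEMA4D, the ligand of PLXNB1, fell by 1.30 ± 0.08 with Snail in HMLE on its brighter probe set and differed by -0.12 ± 0.08 on its other probe set (adjusted p = 0.353), so this fall depends on the probe set used. With Twist the probe sets gave -0.84 ± 0.08 and 0.17 ± 0.08 (adjusted p = 0.175 for the second).

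SEMA6A, a transmembrane semaphorin that signals through class A plexins, differed between the lines in its Snail effect by 2.52 ± 0.22 (adjusted p = 8.06e-08). It was at 6.83, 6.73 and 6.21 in MCF10A Snail arrays, against 9.25, 8.94 and 9.24 in MCF10A vector arrays, a fall of 2.55 ± 0.16 (5.85-fold, adjusted p = 3.1e-09). The 9 HMLE arrays lay between 5.65 and 6.22, and Snail differed from vector there by -0.03 ± 0.16 (adjusted p = 0.923). These HMLE values are under 6.96, the 25th percentile of all genes, a dim range where differences are compressed and a fall has little room. SEMA6A was at 5.72, 6.18 and 6.02 in labelled MCF10A Twist arrays, differing from MCF10A vector by -3.17 ± 0.16 and from HMLE vector by -0.15 ± 0.16 (adjusted p = 0.466).

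**Figure D3:**
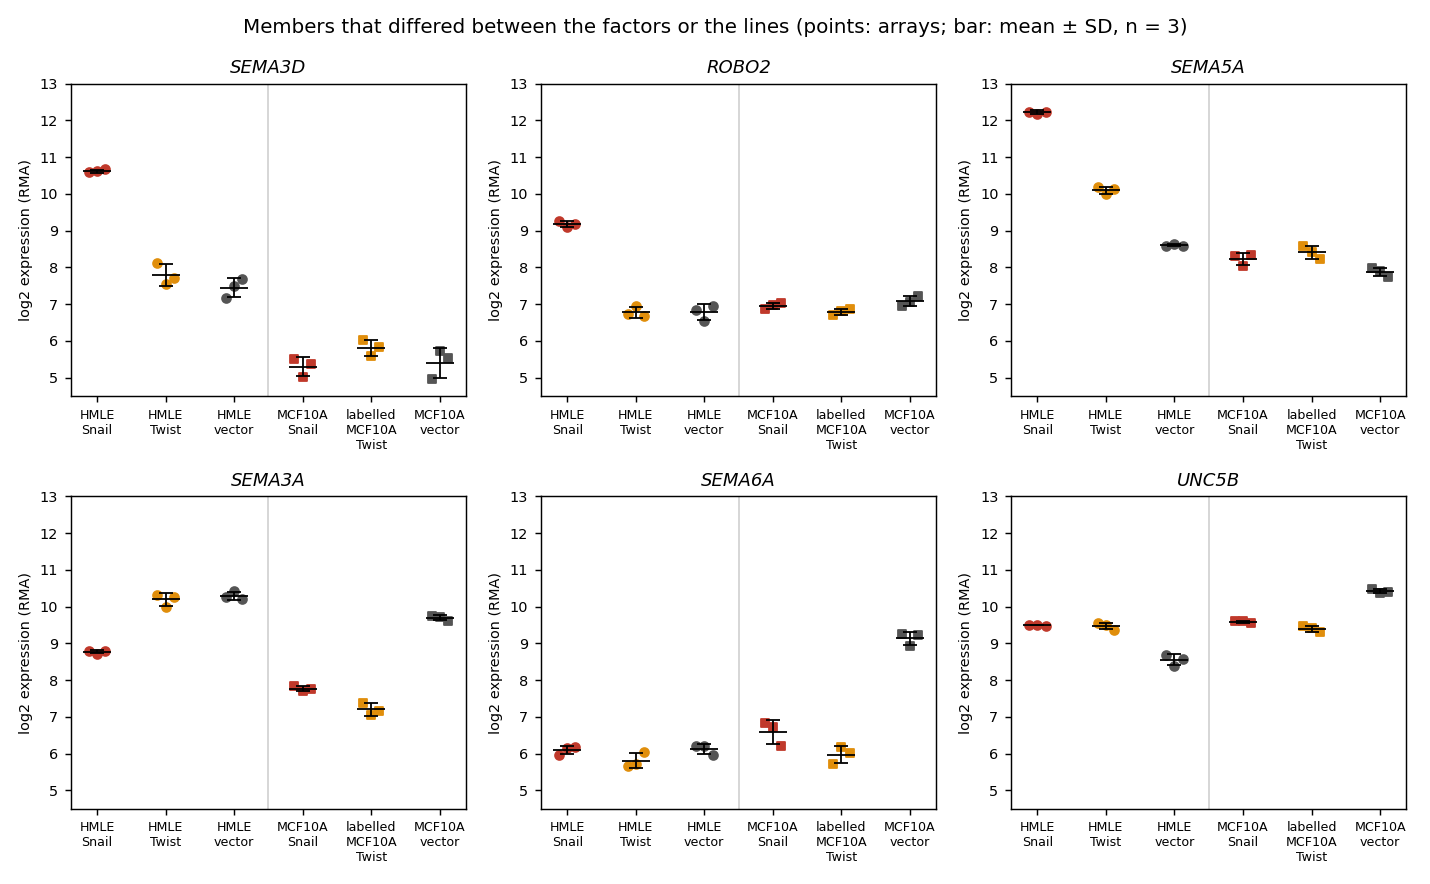
Log2 expression of SEMA3D, ROBO2, SEMA5A, SEMA3A, SEMA6A and UNC5B in each of the 18 arrays (points), with group mean and SD (black bar, n = 3), HMLE groups left and MCF10A groups right of the grey line. SEMA3D and ROBO2 are high in the 3 HMLE Snail arrays alone, SEMA6A in the 3 MCF10A vector arrays alone, and UNC5B is lowest in HMLE vector and highest in MCF10A vector arrays.

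The neuropilins, co-receptors that bind class 3 semaphorins and VEGF, moved in opposite directions in all 4 comparisons with vector. NRP1 was at 12.03, 12.03 and 12.06 in HMLE Snail arrays and at 11.38, 11.2 and 11.29 in HMLE Twist arrays, against 10.61, 10.74 and 10.57 in HMLE vector arrays. It rose by 1.40 ± 0.06 with Snail, by 0.65 ± 0.06 with Twist, and by 0.29 ± 0.06 with Snail in MCF10A (adjusted p = 0.00139). In labelled MCF10A Twist arrays NRP1 was at 11.48, 11.43 and 11.41, against 9.88, 9.81 and 9.83 in MCF10A vector arrays (1.60 ± 0.06). NRP2 was at 6.71, 6.74 and 6.58 in HMLE Snail arrays and at 7.29, 7.23 and 7.04 in HMLE Twist arrays, against 9.26, 9.37 and 9.27 in HMLE vector arrays. The falls were -2.62 ± 0.08 (6.15-fold) and -2.11 ± 0.08 (4.32-fold). In MCF10A, NRP2 was at 9.98, 9.67 and 9.93 with Snail, against 10.48, 10.45 and 10.39 with vector, a fall of 0.58 ± 0.08. In labelled MCF10A Twist arrays NRP2 was at 6.4, 6.18 and 6.31, the largest difference of any member in that comparison, against 10.48, 10.45 and 10.39 in MCF10A vector arrays (-4.14 ± 0.08). NRP2 has a second probe set, on which the HMLE falls were -2.5 ± 0.11 with Snail and -2.15 ± 0.11 with Twist.

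Plexins, the signalling receptors for semaphorins, changed in 8 of 9 cases with Snail in HMLE, 5 up and 3 down, and in 5 cases with Twist, 1 up and 4 down. These are shares of 88.9% and 55.6%, against 47.7% and 43.7% of all genes. PLXND1, a receptor of SEMA3E best known from blood vessels, was at 10.49, 10.30 and 10.36 in HMLE Snail arrays and at 9.11, 9.02 and 9.07 in HMLE Twist arrays, against 8.59, 8.57 and 8.53 in HMLE vector arrays. It rose by 1.82 ± 0.06 with Snail and by 0.50 ± 0.06 with Twist, while Snail in MCF10A gave 0.04 ± 0.06 (adjusted p = 0.69). Its ligand SEMA3E fell in the same HMLE arrays. PLXNB1, the SEMA4D receptor, fell by 0.85 ± 0.07 with Snail and 0.97 ± 0.07 with Twist in HMLE, and by 0.33 ± 0.07 with Snail in MCF10A. PLXNA2, a class A plexin that can pair with neuropilins, was at 7.8, 7.65 and 7.65 in labelled MCF10A Twist arrays, against 9.8, 9.74 and 9.73 in MCF10A vector arrays (-2.06 ± 0.06), and it fell in HMLE by 0.40 ± 0.06 with Snail and 0.91 ± 0.06 with Twist.

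NTN4, a netrin that is built into basement membranes by binding laminins, rose in HMLE and fell slightly in MCF10A with Snail. It was at 10.76, 10.76 and 10.76 in HMLE Snail arrays and at 11.97, 11.83 and 11.88 in HMLE Twist arrays, against 9.3, 9.27 and 9.15 in HMLE vector arrays. The rise was 1.52 ± 0.06 with Snail and 2.66 ± 0.06 with Twist, and Snail minus Twist was -1.13 ± 0.06. MCF10A Snail arrays were at 10.05, 9.85 and 9.91, against 10.29, 10.2 and 10.25 in MCF10A vector arrays (-0.31 ± 0.06, adjusted p = 0.00107). NTN1, the classical attractant, fell by 0.31 ± 0.09 with Snail and by 0.76 ± 0.09 with Twist in HMLE.

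UNC5B, a netrin receptor that can trigger death of cells without ligand, took opposite directions in the lines. It was at 9.49, 9.49 and 9.48 in HMLE Snail arrays and at 9.55, 9.49 and 9.37 in HMLE Twist arrays, against 8.69, 8.39 and 8.57 in HMLE vector arrays. In MCF10A it was at 9.6, 9.6 and 9.56 with Snail and at 9.47, 9.43 and 9.32 in the arrays labelled Twist, against 10.49, 10.37 and 10.4 with vector. All 12 arrays with a factor lay between 9.32 and 9.6, above the HMLE vector arrays and below the MCF10A vector arrays. The differences were 0.93 ± 0.07 and 0.92 ± 0.07 with Snail and Twist in HMLE and -0.84 ± 0.07 with Snail in MCF10A. UNC5C fell with Twist in HMLE by 1.53 ± 0.13, whereas Snail gave -0.29 ± 0.13 (adjusted p = 0.0679).

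Set against each other directly in HMLE, Snail and Twist arrays differed in 37 of 68 members (54.4%), against 32.1% of all genes. Of these, 21 were higher and 16 lower with Snail, against 14.3% and 17.9% of all genes. At least 2-fold differences were found in 10 members (14.7%), against 2.82% of all genes, with 7 higher and 3 lower, against 1.8% and 1.02%. Those higher with Snail were SEMA3D, ROBO2, SEMA5A, ROBO1, SLIT3, PLXND1 and UNC5C, and those higher with Twist were SEMA3A, EPHA4 and NTN4. Plexins were higher with Snail in 6 of 9 cases and lower in none, by 0.25 to 1.32. The members with no call between the factors included EPHA1, EPHB6, SEMA4A and UNC5B, and for UNC5B the 95% interval of the difference was -0.13 to 0.16.

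**Figure D4:**
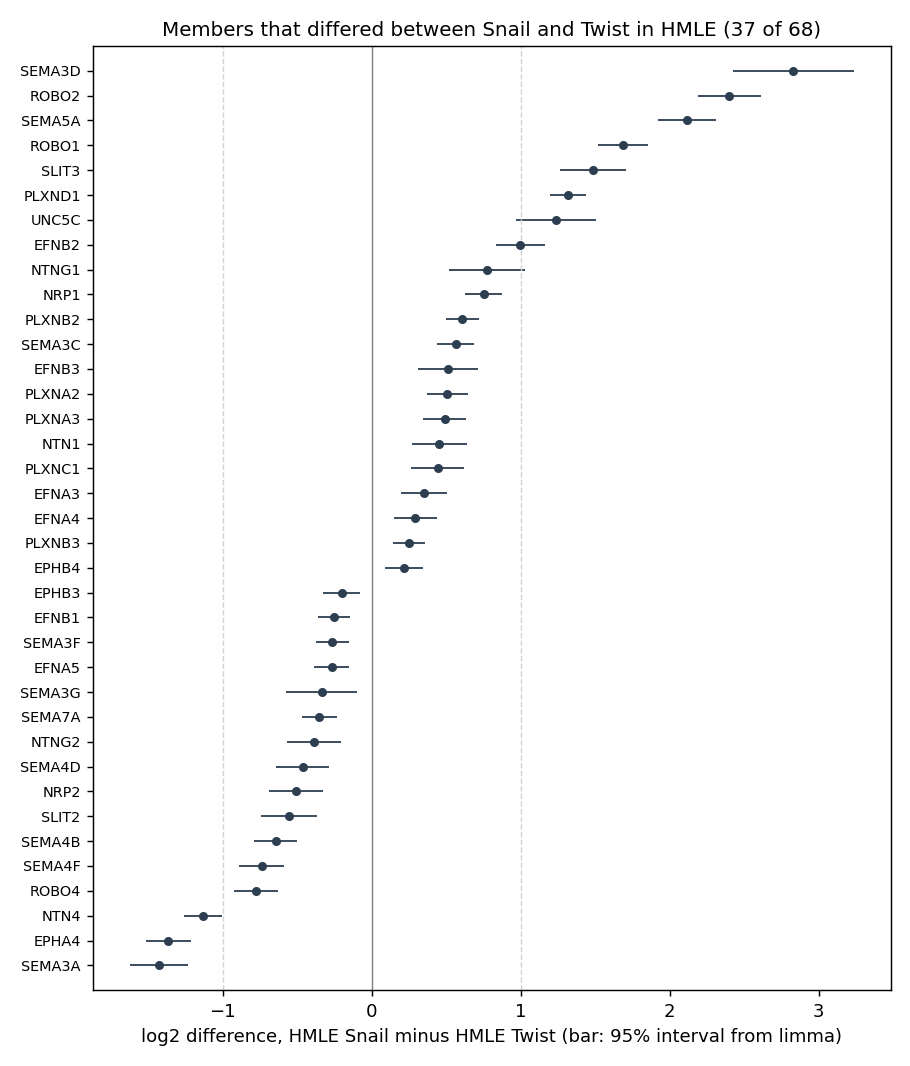
Log2 difference between HMLE Snail and HMLE Twist arrays, Snail minus Twist, for the 37 members called in that comparison (points, with 95% intervals from limma). The dashed lines mark 2-fold, and SEMA3D, ROBO2 and SEMA5A lie farthest to the right while SEMA3A, EPHA4 and NTN4 lie farthest to the left.

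The effect of Snail differed between HMLE and MCF10A, tested as a difference of differences, in 39 members (57.4%), against 40.2% of all genes. The effect was more positive in HMLE in 25 and more negative in 14, against 19.9% and 20.2% of all genes. In 15 the difference was at least 2-fold (22.1%), against 8.62% of all genes, positive in 11 and negative in 4, against 4.58% and 4.04%. These lines do not share vector arrays. Snail called 20 members in both lines: 5 rose in both, 11 fell in both, 3 rose in HMLE and fell in MCF10A (EPHB4, NTN4 and UNC5B) and SEMA3C did the opposite. Over all genes 16.6% were called in both lines, 5.38% rose in both, 5.97% fell in both, 2.71% rose in HMLE and fell in MCF10A and 2.49% did the opposite. Moving the same way did not mean moving by the same amount, and the Snail effects differed between the lines in 13 of the 16 members that did so. The difference was at least 2-fold in 5 of them, SEMA5A (3.26), SLIT2 (2.71), NRP1 (1.11), NRP2 (-2.04) and EPHA1 (-1.72). In EPHB3, SEMA7A (-0.14 ± 0.08, adjusted p = 0.195) and EFNA1 (-0.19 ± 0.26, adjusted p = 0.642) it did not pass the test. For all genes that moved the same way in both lines, the matching shares were not computed, so these counts describe the members alone. Beside these effects, SNAI1 stood at 12.53 in HMLE Snail and 12.49 in MCF10A Snail arrays, and the adherens junction cadherin CDH1 fell by 5.64 ± 0.11 in HMLE and by 0.57 ± 0.11 in MCF10A.

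**Figure D5:**
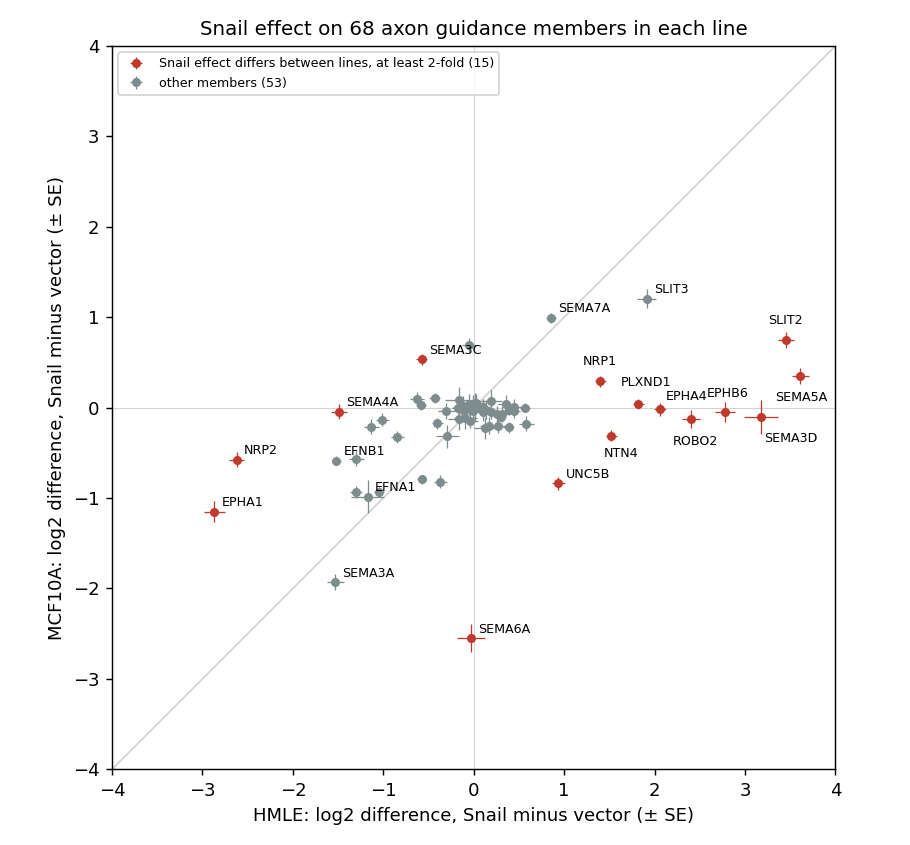
Snail minus vector in HMLE (horizontal) against Snail minus vector in MCF10A (vertical), log2 difference ± SE, for the 68 members, with the diagonal of equal effects. The 15 red members differ at least 2-fold between the lines, most of them far from 0 in HMLE and near 0 in MCF10A, while SEMA6A is near 0 in HMLE and at -2.55 in MCF10A.

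Before any factor, the lines already differed in these genes. HMLE vector and MCF10A vector arrays differed in 43 members (63.2%), against 44% of all genes, with 19 higher and 24 lower in HMLE, against 23.4% and 20.6%. At least 2-fold differences were found in 11 (16.2%), against 6.35% of all genes, with 4 higher and 7 lower, against 3.32% and 3.03%. SEMA7A was at 10.67, 10.62 and 10.58 in HMLE vector arrays, against 7.96, 7.89 and 7.93 in MCF10A vector arrays (2.70 ± 0.05). Also higher in HMLE were SEMA3D (2.05 ± 0.19), SEMA4A (1.64 ± 0.09) and NTNG1 (1.05 ± 0.12). Higher in MCF10A, on the same HMLE minus MCF10A scale, were SEMA6A (-3.01 ± 0.16), UNC5B (-1.87 ± 0.07), SEMA4B (-1.20 ± 0.07), NRP2 (-1.14 ± 0.08), EFNA1 (-1.03 ± 0.18), EPHB3 (-1.03 ± 0.06) and NTN4 (-1.01 ± 0.06).

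Since the line of the arrays labelled MCF10A Twist was in doubt, they were also set against HMLE vector arrays. They differed in 44 members (64.7%), against 49.2% of all genes, with 17 higher and 27 lower, against 25.2% and 24%. At least 2-fold differences were found in 19 (27.9%), against 9% of all genes, with 5 higher and 14 lower, against 4.03% and 4.97%. SLIT2 (2.99 ± 0.09), NTN4 (2.86 ± 0.06), EPHB6 (2.32 ± 0.11), EPHA4 (1.84 ± 0.07) and PLXND1 (1.14 ± 0.06) were higher against either vector group. NRP2, ROBO1, SEMA3A, EPHA1 and PLXNA2 were lower against either, with NRP2 at -3.0 ± 0.08 against HMLE vector. UNC5B changed sign with the comparison, at -1.02 ± 0.07 against MCF10A vector and 0.85 ± 0.07 against HMLE vector. SEMA7A did so too, at 1.97 ± 0.05 against MCF10A vector and -0.72 ± 0.05 against HMLE vector.

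Other genes of these pathways were counted in 4 lists, beside 47.7% of all genes that changed with Snail and 43.7% with Twist in HMLE. Of 23 measured co-receptors and further guidance ligands, 7 rose and 7 fell with Snail in HMLE and 4 rose and 10 fell with Twist (60.9% changed in each). The adhesion molecule CNTN1 differed by -4.82 ± 0.08 with Snail and -4.73 ± 0.08 with Twist, and FLRT3, a ligand of UNC5 receptors, fell by 3.85 ± 0.12 with Twist. Of 40 cytoplasmic effectors, 23 rose and 6 fell with Snail in HMLE and 21 rose and 9 fell with Twist (72.5% and 75% changed), with medians of 0.18 and 0.21 against -0.01 and 0.02 for all genes. DPYSL3, a collapsin response mediator that relays semaphorin signals to the cytoskeleton, rose by 2.07 ± 0.06 and 2.18 ± 0.06, and fell by 0.89 ± 0.06 with Snail in MCF10A. Of 9 genes of VEGF and HGF signalling, which neuropilins take part in, 3 rose and 2 fell with Snail in HMLE and 2 rose and 3 fell with Twist (55.6% changed in each). HGF, the ligand of the receptor kinase MET, rose by 2.27 ± 0.12 with Snail and 0.94 ± 0.12 with Twist, and VEGFA fell by 0.83 ± 0.05 and 1.38 ± 0.05. Of 8 genes for Eph and ephrin processing, 3 rose and 2 fell with Snail and 2 rose and 2 fell with Twist (62.5% and 50% changed). With either factor 0 of these 8 changed at least 2-fold, against 8.88% of all genes with Snail and 7.89% with Twist.

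Over the 8 comparisons, 12 of the 68 members (17.6%) were never called, against 27.2% of all genes: the receptors EPHA3, EPHA7, EPHA8, EPHA10, EPHB1, PLXNA4, UNC5A and UNC5D and the ligands EFNA2, NTN3, SEMA3B and SEMA5B. The other 56 (82.4%) were called in at least 1 comparison with vector, against 68.6% of all genes, and 31 (45.6%) at least 2-fold, against 16.3% of all genes. In all, 11 members had a mean over the 18 arrays under 6.96, the 25th percentile of all genes, where RMA compresses differences. Of these, SEMA6A, UNC5C, SEMA6D and UNC5D passed that level in some arrays, while EPHA3, EPHA5, EPHA6, EPHA7, EPHB1, PLXNC1 and SEMA3E stayed under it in all 18.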

How the data were processed

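Total RNA of 18 samples was labelled with biotin and hybridised to expression arrays. The deposited table holds log2 expression of 33297 probe sets. Per the submitters' processing notes, the authors used RMA. RMA corrects background, quantile-normalizes and summarises probes, and compresses differences of dim genes. No version of RMA is given in the labels. The range of the values shows the log2 scale. Array medians lay between 7.698 and 7.793 and within-group correlations between 0.990 and 0.997. With 3 arrays a group, the array number sets the precision.

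Groups came from the sample titles. Symbols came from the platform annotation and were updated through gene IDs (19429 of 19460 probe sets with 1 symbol matched). The probe set with the highest mean represented each gene, and 3 members had more than 1 probe set. Differences were fitted with limma 3.58.1 in R 4.3.3, with 6 group means, 12 residual degrees of freedom and Benjamini-Hochberg adjustment over 18417 genes. The fit was tested on simulated data. Intervals are 95% intervals from the same fit. Promoters came from RefSeq tables on GRCh38.p14. Figures were drawn with matplotlib 3.10.9.

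Members, lists and tests were chosen with earlier results of these data known. Any member could be named. Array values are given for members among the 8 largest differences of at least 2-fold in a comparison with vector and for their ligands or receptors. Of other lists, up to 4 genes with the largest called differences could be named. Alternatives covered normalization, array weights, variance prior, probe sets, a filter on dim genes, the groups in the fit, the replicate number as a block, thresholds and each array left out.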

Additional observations from a re-analysis of the deposited data

Results flagged for a closer look

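In 15 members the effect of Snail differed at least 2-fold between the lines, by the test of the difference itself (limma, adjusted p under 0.05). Values are the Snail effect in HMLE minus the Snail effect in MCF10A, on the log2 scale. Those whose effect was more positive in HMLE were SEMA3D (3.28), SEMA5A (3.26), EPHB6 (2.83), SLIT2 (2.71), ROBO2 (2.53), SEMA6A (2.52), EPHA4 (2.08), NTN4 (1.83), PLXND1 (1.78), UNC5B (1.77) and NRP1 (1.11). SEMA6A fell in MCF10A, and in HMLE its Snail and vector arrays overlapped at dim levels of at most 6.22. Those whose effect was more negative in HMLE were NRP2 (-2.04), EPHA1 (-1.72), SEMA4A (-1.44) and SEMA3C (-1.11). SEMA4A stood at 8.64 to 8.99 in HMLE vector arrays, against 7.12 to 7.23 in MCF10A vector arrays. The part of the starting level in these differences was not tested.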

How the results depend on the processing

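The 2-fold member counts were within 1.5 times of the reported ones under array weights, median centring, quantile normalization, a robust variance trend, averaged probe sets, the filter on dim genes, fits to the compared groups alone, fits without the arrays labelled MCF10A Twist, the replicate block and an adjusted p under 0.01. Thresholds moved them: by adjusted p alone the counts were 44, 41, 22 and 46 for HMLE Snail, HMLE Twist, MCF10A Snail and labelled MCF10A Twist against vector, 37 for Snail against Twist, 39 for the Snail effect between lines, 43 for the vector groups and 44 for labelled MCF10A Twist against HMLE vector. At a 1.5-fold limit, counts that moved by more than 1.5 times were 29 for HMLE Twist, 14 for MCF10A Snail, 17 for Snail against Twist, 25 between lines, 23 for the vector groups and 29 for labelled MCF10A Twist against HMLE vector. Among all genes 15.8%, 4.98%, 7.87%, 19.2%, 15% and 18.8% passed that limit in these comparisons, listed alike. Leaving out 1 array gave 20 to 21, 15 to 16, 4 to 6 and 19 to 20 for the 4 comparisons with vector, in the order above, 10 to 11, 15 to 15, 10 to 12 and 19 to 19 for the others. No difference counted there changed sign under any of these alternatives, and no called member turned under the scalings, where the median of all genes moved by at most 0.065. SEMA4F, NTN4, EFNA1, NTNG1, EFNB2, PLXND1 and UNC5B crossed the 2-fold limit under some alternatives while passing the test, and SEMA4D lost its call on its other probe set (-0.12). That probe set was tried after seeing the data. In no comparison was the correlation of deviations above 0.1 for all replicate numbers (it ran from -0.52 to 0.33). Whether replicate numbers pair the samples was not settled by this cutoff. All correlations were positive for MCF10A Snail against vector (0.33, 0.1 and 0.07) and labelled MCF10A Twist against MCF10A vector (0.31, 0.04 and 0.14). They were also positive for HMLE Snail against HMLE Twist (0.12, 0.25 and 0.05). In the other comparisons examined, some or all were negative. With the replicate block 45, 42, 24 and 47 members were called against vector. The block raised the number of genes called in every comparison, from 4173 to 4509 for MCF10A Snail against vector.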
